A study of Mus musculus with 13 samples.

Results

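The 10 genes described here are the proteases and the defining surface and enzyme genes of mouse mast cells: the chymases Mcpt1, Mcpt2, Mcpt4 and Cma1, the carboxypeptidase Cpa3, the tryptase Tpsb2, the receptors Kit, Fcer1a and Ms4a2, and the histamine-forming enzyme Hdc. They were chosen by name from the 19938 genes that had a probe set of their own, and each of the 10 had exactly 1 such probe set. Levels are given on the deposited log2 scale, where a difference of 1 is a 2-fold difference, and levels of different genes are not compared because each probe set responds differently.

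Mast cells are tissue-resident immune cells whose granules hold histamine, proteoglycan and proteases. In the mouse, mucosal mast cells of the gut epithelium and lamina propria store the chymases Mcpt1 and Mcpt2, while connective tissue mast cells store Mcpt4, Cma1 and tryptases such as Tpsb2 together with Cpa3. The growth factor receptor Kit keeps mast cells alive, and Fcer1a and Ms4a2 encode the alpha and beta chains of the high-affinity IgE receptor, through which antigen sets off release of the granules.

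The samples came from the small intestine of Apc mutant mice crossed with transgenic mice that express FPs, a term not spelled out in the labels, which also leave out the promoter that drives the transgene. All 3 groups carried both modifications: adenomas (n = 3), normal epithelium next to adenomas with high FP expression, called FP-high (n = 4), and normal epithelium next to adenomas with low FP expression, called FP-low (n = 6). Per the labels' protocols, crypts were taken up in glass capillaries of 40 µm diameter, and RNA was amplified before labelling. The labels give neither ages nor the animal behind each array, so the p-values measure only the spread between these samples, which may be in part technical, and in such bulk samples fewer cells of a type and less RNA per cell cannot be told apart.

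The array of FP-high replicate 1 stood apart. The SD of its log2 values was 1.21, against 1.89 to 2.10 on the other arrays, and its median correlation with the others was 0.762, against 0.943 to 0.968. Its lower quartile was 4.04, against 3.51 to 3.71. It was above every other normal array at 6 of the 10 mast cell genes and the highest of all 13 arrays at 4 of them. Several results are therefore also given without it. The share of all probe sets at which it stood so high was not counted, so these counts are not read as a trait of mast cell genes. The epithelial marker Epcam read 9.24 to 9.33 in adenomas, 7.58 to 9.24 in FP-high epithelium and 9.03 to 9.58 in FP-low epithelium.

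Mcpt2 was the mast cell gene that set the adenomas apart. Its log2 level was 5.98, 7.42 and 6.02 in adenomas, against 2.91, 2.73, 2.61 and 2.90 in FP-high epithelium and 2.28, 2.72, 3.33, 2.22, 2.38 and 2.81 in FP-low epithelium. Every adenoma lay above every normal array, which held for 1.93% of all probe sets, the lowest adenoma at 5.98 and the highest normal array at 3.33. That normal level was below 3.51, the lowest lower quartile of any array. Whether such levels exceed background was not tested, so the size of the fold given below is uncertain. The group means were 6.47 ± 0.82 in adenomas (SD, n = 3), 2.79 ± 0.14 in FP-high epithelium (n = 4) and 2.62 ± 0.42 in FP-low epithelium (n = 6). Against the average of both normal groups the difference was 3.77 ± 0.30 (SE), with a 95% interval of 3.12 to 4.41, equal to 13.6-fold (limma adjusted p = 2.53e-05). Against FP-high epithelium alone it was 3.68 ± 0.34 (limma adjusted p = 0.00018), and against FP-low epithelium alone 3.85 ± 0.32 (limma adjusted p = 4.67e-05).

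Few probe sets moved so far. In adenomas against normal epithelium Mcpt2 ranked 12 of 23410 by p-value, and 16 probe sets had a larger rise. Without FP-high replicate 1 the difference was 3.79 (limma adjusted p = 5.43e-05). With the replicate number as a block it was 3.63 against FP-high epithelium (limma adjusted p = 0.0214), a fit in which the call remained although the number of all probe sets called in that comparison was 51, against 179 without the block. In a fit on only the 6 arrays of the 3 replicate numbers that adenomas and FP-high epithelium share, added after the data had been seen, the difference was 3.72 and was not called (limma adjusted p = 0.277), as were 0 of all probe sets.

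Mcpt1, the other mucosal chymase, was high in 2 of the 3 adenomas. It read 4.95, 5.28 and 2.75 in adenomas, against 3.81, 3.04, 2.21 and 2.60 in FP-high epithelium and 2.65, 2.47, 3.00, 2.39, 2.69 and 2.56 in FP-low epithelium. Adenoma replicates 1 and 2 were above every normal array, and adenoma replicate 3 lay among them. Outside FP-high replicate 1 the normal arrays read Mcpt1 below 3.51, the lowest lower quartile of any array. The difference from normal epithelium was 1.56 ± 0.44 with a 95% interval of 0.60 to 2.52 and did not pass the threshold (limma adjusted p = 0.172, unadjusted p = 0.00388). Leaving out adenoma replicate 3 gave 2.35, which was called (limma adjusted p = 0.00474), while leaving out FP-high replicate 1 gave 1.71 (limma adjusted p = 0.0634).

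The 3 adenomas did not take the same order for the 2 chymases. Adenoma replicate 3 had the lowest Mcpt1 level of the 3 but a Mcpt2 level of 6.02, next to 5.98 in adenoma replicate 1. Both genes were highest in adenoma replicate 2.

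**Figure D1:**
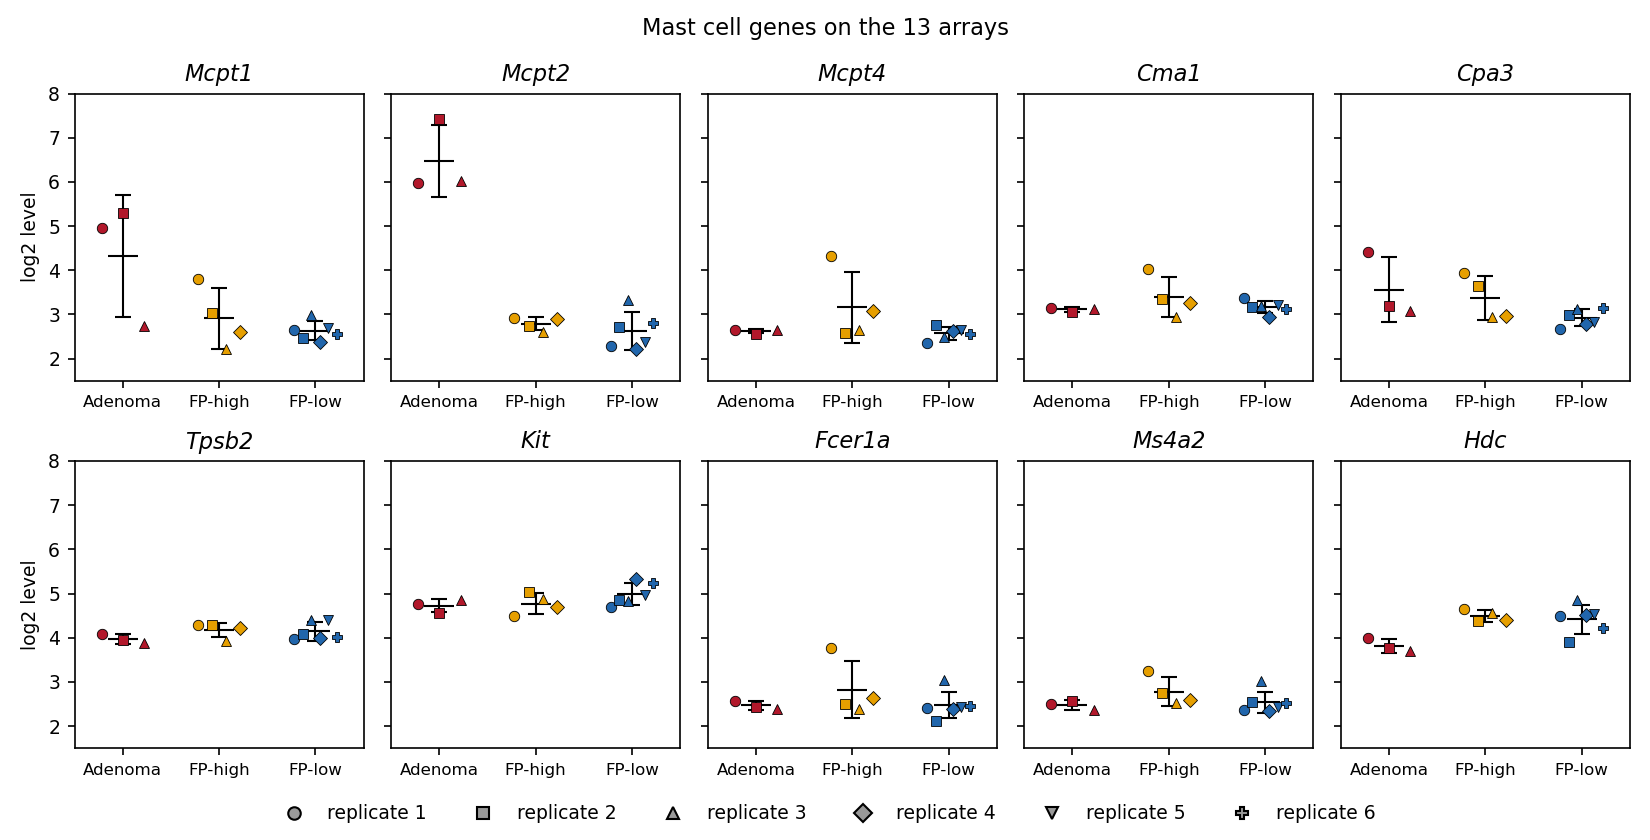
Log2 level of each mast cell gene on each array, with 1 panel per gene, 1 point per array, the shape for the replicate number and the horizontal bar and whiskers for the group mean and SD. Mcpt2 is at 5.98 or above in all 3 adenomas and at 3.33 or below on all normal arrays, Mcpt1 is high in 2 adenomas, and FP-high replicate 1 is the highest array for Mcpt4, Cma1, Fcer1a and Ms4a2.

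Mcpt1 and Mcpt2 lie side by side in a cluster of chymase and granzyme genes on mouse chromosome 14. The regions just upstream of 3 of its chymases are shown because these related neighbours of Mcpt2 are among the 10 genes; Mcpt2 is named only. Each line holds the 250 bases before the transcription start as annotated by RefSeq (GRCm38.p6), 5′ to 3′ on the gene's strand, with the letters GATAA or TTATC, the core recognised by GATA factors, in capitals.
Mcpt1 (chr14:56017714-56017963, plus strand): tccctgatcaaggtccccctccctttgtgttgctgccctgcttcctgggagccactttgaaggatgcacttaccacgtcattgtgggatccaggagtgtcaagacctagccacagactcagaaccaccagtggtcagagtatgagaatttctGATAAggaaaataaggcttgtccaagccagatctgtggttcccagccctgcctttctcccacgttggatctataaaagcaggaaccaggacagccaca
Mcpt4 (chr14:56062311-56062560, minus strand): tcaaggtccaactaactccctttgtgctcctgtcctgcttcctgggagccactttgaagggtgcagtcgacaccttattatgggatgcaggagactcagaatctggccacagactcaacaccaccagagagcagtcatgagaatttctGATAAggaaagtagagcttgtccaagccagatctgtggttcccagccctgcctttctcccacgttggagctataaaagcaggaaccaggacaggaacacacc
Cma1 (chr14:55944676-55944925, minus strand): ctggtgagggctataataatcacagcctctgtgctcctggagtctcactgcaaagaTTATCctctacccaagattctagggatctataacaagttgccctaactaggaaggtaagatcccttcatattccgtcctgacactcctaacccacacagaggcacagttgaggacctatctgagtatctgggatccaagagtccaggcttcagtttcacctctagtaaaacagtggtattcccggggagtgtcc

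The windows of Mcpt1 and Mcpt4 matched at 207 of 254 aligned columns (81.5%), whereas those of Mcpt1 and Cma1 matched at 50.9% and those of Mcpt4 and Cma1 at 50.2%. GATAA began 98 bases before the start in Mcpt1 and 102 bases before it in Mcpt4, and both carried TATAAA, searched on the gene's strand, 28 and 32 bases before the start. In Cma1 the letters were TTATC, 194 bases before the start, TATAAA was not found, and 1 match of CANNTG, the E-box core, began 90 bases before the start. GATAA or TTATC was found in 22.6% of 32817 RefSeq windows of this length, CANNTG in 66.2% and TATAAA in 7.60%. The motifs were searched as letters on both strands except where stated, and a match is no evidence of binding.

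Mcpt4 did not have the high adenoma values of Mcpt1. This chymase of connective tissue mast cells read 2.64, 2.56 and 2.64 in adenomas, against 4.32, 2.57, 2.66 and 3.09 in FP-high epithelium and 2.35 to 2.77 with a median of 2.59 in FP-low epithelium. Adenomas lay within the range of FP-low epithelium, and only FP-high replicates 1 and 4 were above it. The difference between adenomas and normal epithelium was -0.25 ± 0.28 (limma adjusted p = 0.707), and -0.057 without FP-high replicate 1. Cma1 read 3.06 to 3.15 in adenomas, 2.94 to 4.03 in FP-high epithelium and 2.94 to 3.37 in FP-low epithelium, a difference of -0.17 ± 0.18 between adenomas and normal epithelium (limma adjusted p = 0.699), and of -0.064 without FP-high replicate 1. Outside that array Mcpt4 and Cma1 read below 3.51, the lowest lower quartile of any array. Whether such levels exceed background was not tested.

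Across the cluster from Cma1 to Gzmb, RefSeq places 15 protein-coding genes, and 13 of them had a probe set of their own. Mcpt2 was the 1 gene of these called in adenomas against normal epithelium. The 11 genes other than Mcpt1 and Mcpt2 differed by -0.44 to -0.05, with a smallest limma adjusted p of 0.625. Among them were the basophil protease Mcpt8 (-0.36 ± 0.35), cathepsin G (Ctsg, -0.16 ± 0.24) and granzyme B of cytotoxic lymphocytes (Gzmb, -0.44 ± 0.34). The differences of these 11 genes include FP-high replicate 1. That array read 5.43 for Mcpt8, against 3.23 to 3.51 on the other FP-high arrays and 3.13 to 3.32 in adenomas. Cma2 and Mcpt9 shared their 2 probe sets with each other and were not measured alone; Mcpt9 lies inside the annotated span of Mcpt2. The probe sequences were not used here, so how much a probe set of 1 chymase also detects its close relatives was not tested.

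**Figure D2:**
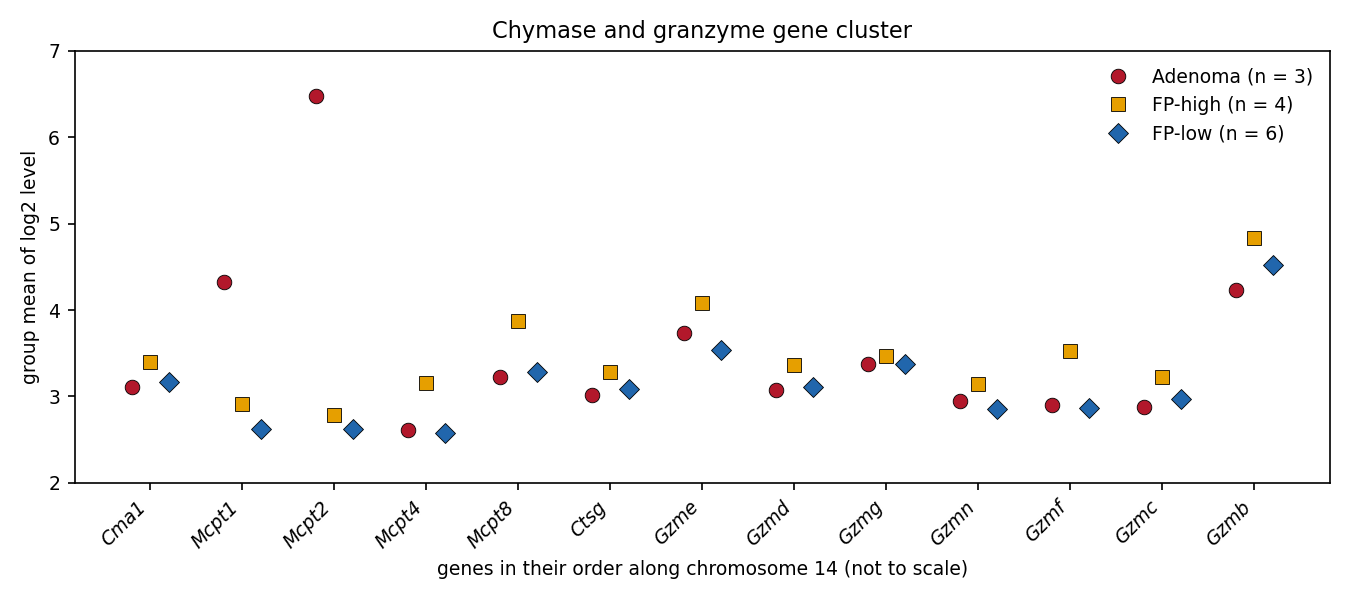
Group mean of the log2 level (adenoma n = 3, FP-high n = 4, FP-low n = 6) for the 13 measured genes of the chymase and granzyme cluster, in their order along chromosome 14 and not to scale. Mcpt2 stands at 6.47 in adenomas against 2.79 in FP-high and 2.62 in FP-low epithelium, and for the 11 genes other than Mcpt1 and Mcpt2 the adenoma mean is below the FP-high mean, which includes FP-high replicate 1.

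The granule enzymes encoded elsewhere in the genome did not pass the test. Cpa3, a carboxypeptidase of mast cell granules, read 4.40, 3.20 and 3.08 in adenomas, against 3.94, 3.64, 2.95 and 2.97 in FP-high epithelium and 2.68 to 3.14 with a median of 2.91 in FP-low epithelium. Only adenoma replicate 1 was above all normal arrays. The difference from normal epithelium was 0.41 ± 0.28 with a 95% interval of -0.19 to 1.01 (limma adjusted p = 0.595). Without adenoma replicate 1 it was -0.01, and without FP-high replicate 1 it was 0.50 (limma adjusted p = 0.349). Outside adenoma replicate 1 and FP-high replicates 1 and 2, Cpa3 read below 3.51, the lowest lower quartile of any array. Whether such levels exceed background was not tested. The tryptase Tpsb2 read 3.89 to 4.09 in adenomas, 3.93 to 4.28 in FP-high epithelium and 3.96 to 4.40 in FP-low epithelium, a difference of -0.19 ± 0.14 (limma adjusted p = 0.618).

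Hdc, which makes histamine from histidine, was lower by level in adenomas. It read 3.99, 3.76 and 3.70 in adenomas, against 4.64, 4.37, 4.55 and 4.40 in FP-high epithelium and 4.49, 3.90, 4.86, 4.52, 4.54 and 4.21 in FP-low epithelium. All 3 adenomas were below all 4 FP-high arrays, a pattern held in the same direction by 10.4% of all probe sets, and FP-low replicate 2 lay among the adenomas. The difference from normal epithelium was -0.64 ± 0.17 with a 95% interval of -1.01 to -0.26 and was not called (limma adjusted p = 0.153, unadjusted p = 0.00313).

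The receptors gave no call either. Kit, which is also carried by the interstitial cells of Cajal of the gut wall, read 4.77, 4.56 and 4.84 in adenomas, against 4.49 to 5.04 in FP-high epithelium and 4.69 to 5.33 in FP-low epithelium. Its difference between adenomas and normal epithelium was -0.16 ± 0.16 (limma adjusted p = 0.689). Fcer1a read 2.39 to 2.57 in adenomas, against 3.77, 2.49, 2.39 and 2.64 in FP-high epithelium and 2.12 to 3.03 in FP-low epithelium (-0.18 ± 0.26, limma adjusted p = 0.762). Ms4a2 read 2.36 to 2.56 in adenomas, 2.53 to 3.24 in FP-high epithelium and 2.35 to 3.01 in FP-low epithelium (-0.18 ± 0.18, limma adjusted p = 0.673). Without FP-high replicate 1 the difference was -0.023 for Fcer1a and -0.11 for Ms4a2. For both IgE receptor chains all 3 adenomas were within the range of the FP-low arrays. The 95% intervals of these 3 receptor differences reached no further than 0.38 above 0, and no further than 0.74 below it. Outside FP-high replicate 1, Fcer1a and Ms4a2 read below 3.51, the lowest lower quartile of any array. Whether such levels exceed background was not tested, so for them the intervals do not bound a change in RNA.

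Counted together, 1 of the 10 genes was called in adenomas against normal epithelium, where 0.91% of all probe sets were called (213 of 23410, of which 207 were higher and 6 lower). Without FP-high replicate 1 the number of all probe sets called was 488, of which 344 were higher and 144 lower. The same gene, Mcpt2, was the 1 call against FP-high epithelium (0.765% of all probe sets called) and against FP-low epithelium (0.551%). At an unadjusted p under 0.05 there were 3 of 10 in each of these comparisons, Mcpt1, Mcpt2 and Hdc, against 10.6%, 15.7% and 7.45% of all probe sets in the same order. By sign 3 genes were higher and 7 lower in adenomas than in normal epithelium, with a median difference of -0.18 over the 10 genes and -0.09 over all probe sets. Without FP-high replicate 1 these medians were -0.061 and -0.075, again with 3 genes higher and 7 lower. The 3 comparisons share the adenoma arrays and are not independent of each other.

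**Figure D3:**
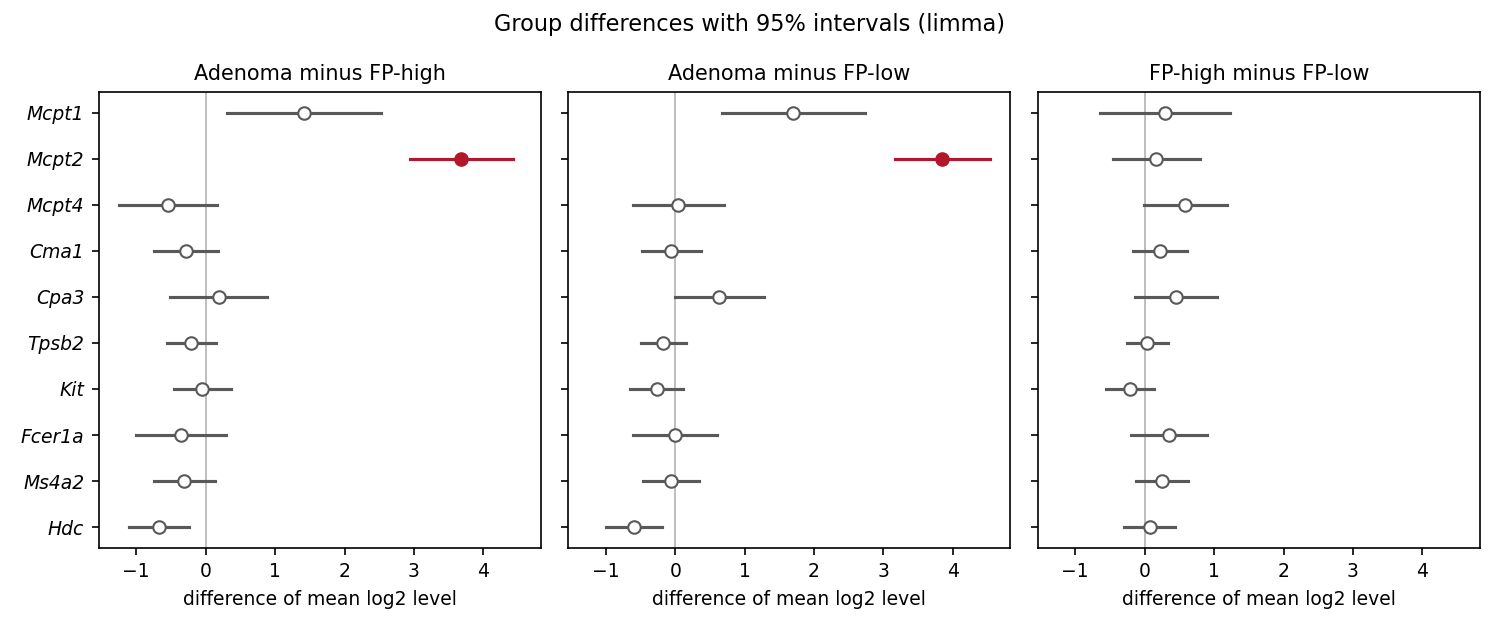
Differences of mean log2 level for the 10 mast cell genes between adenomas and FP-high, adenomas and FP-low, and FP-high and FP-low epithelium, with 95% intervals from limma as horizontal lines, called genes filled and a grey line at 0. The interval of Mcpt2 lies far above 0 in both comparisons of adenomas, those of Mcpt1 and Hdc lie clear of 0 there without being called, and the intervals of all 10 genes reach 0 in FP-high minus FP-low.

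Between the normal groups no mast cell gene was called. Of the 10 genes 0 passed limma's test in FP-high against FP-low epithelium, where 0% of all probe sets were called, and 0 of 10 had an unadjusted p under 0.05, against 12.7% of all probe sets. The smallest adjusted p was that of Mcpt4 (0.59 ± 0.28, limma adjusted p = 0.392), whose difference was 0.20 without FP-high replicate 1. By sign 9 genes were higher and 1, Kit, lower in FP-high epithelium, with a median of 0.24, against 0.05 over all probe sets. Without FP-high replicate 1 the median was 0.03, with 7 genes higher and 3 lower. For Mcpt2 the 95% interval of FP-high minus FP-low ran from -0.46 to 0.79, and for Mcpt1 from -0.65 to 1.23.

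Other genes listed for mast cells followed Mcpt2 no further than most of the 10 did. The list holds genes that other cells also carry, such as the basophil protease Mcpt8 and the ectoenzyme Enpp3. Its counts therefore do not describe mast cells alone. Of 25 further mast cell genes 22 were measured, and 0 were called in any of the 4 comparisons. Against normal epithelium 3 of the 22 had an unadjusted p under 0.05, near the share of 10.6% over all probe sets. They were the prostaglandin D synthase Hpgds (0.40 ± 0.18), the heparin-modifying enzyme Ndst2 (-0.39 ± 0.16) and the serotonin transporter Slc6a4 (-0.63 ± 0.25), with limma adjusted p between 0.400 and 0.456. With FP-high replicate 1 included, the median difference was -0.15, against -0.09 over all probe sets, with 6 genes higher and 16 lower by sign. The transcription factor Gata2 read 5.16, 5.10 and 4.51 in adenomas, against 4.55 to 5.35 in FP-high epithelium and 4.54 to 4.83 in FP-low epithelium. Another tryptase, Tpsab1, read 3.69 to 3.94 in adenomas, 3.77 to 4.52 in FP-high epithelium and 3.81 to 4.56 in FP-low epithelium.

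Among 16 genes for signals and homing receptors that recruit or expand mucosal mast cells, all measured, 1 was called in adenomas against normal epithelium. This was Il33, an alarmin of epithelial and stromal cells that acts on mast cells. It read 7.46, 6.95 and 6.06 in adenomas, against 4.36, 4.41, 4.61 and 4.15 in FP-high epithelium and 3.62 to 4.17 in FP-low epithelium, so that all adenomas were above all normal arrays. The difference was 2.70 ± 0.23 (limma adjusted p = 4.3e-05). The Kit ligand Kitl read 6.83, 6.59 and 6.16 in adenomas, against 4.46, 6.58, 6.13 and 5.57 in FP-high epithelium and 5.72 to 6.77 in FP-low epithelium, and was not called (0.51 ± 0.36, limma adjusted p = 0.605). Il9, a growth factor of mucosal mast cells, differed by -0.13 ± 0.20 and Tgfb1 by 0.19 ± 0.14.

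Of 14 genes for receptors and substrates of mast cell products, 13 were measured, and fibronectin (Fn1), a substrate of chymase, was the 1 called. It read 6.16, 5.05 and 5.23 in adenomas, against 4.06 to 4.80 in FP-high epithelium and 3.98 to 4.42 in FP-low epithelium. The difference from normal epithelium was 1.22 ± 0.22 (limma adjusted p = 0.0187), and without adenoma replicate 1 it was 0.88 and not called (limma adjusted p = 0.0995). With the replicate number as a block it was 1.24 and not called (limma adjusted p = 0.0718). The 4 histamine receptors Hrh1 to Hrh4 differed by -0.25 to -0.15 and were not called.

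**Figure D4:**
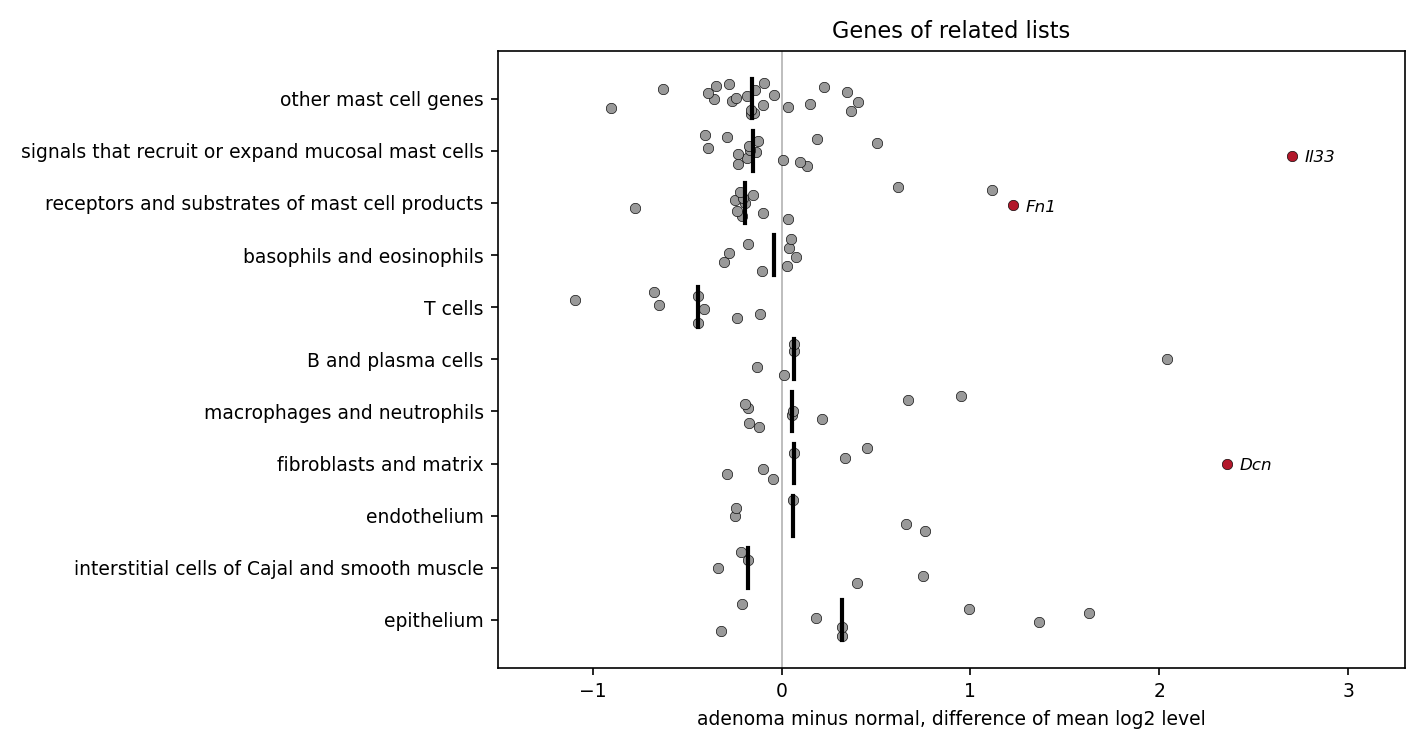
Adenoma minus normal difference of mean log2 level for each measured gene of 11 related lists, 1 point per gene, with the list median as a black bar, called genes in red with their names and a grey line at 0. Il33 at 2.70, Dcn at 2.36 and Fn1 at 1.22 are the called genes, and the median of the further mast cell genes is -0.15.

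Markers of other cell types were read beside these results. Of 7 fibroblast and matrix genes 1, the proteoglycan decorin (Dcn), was called in adenomas against normal epithelium (2.36 ± 0.45, limma adjusted p = 0.0277), at 7.62, 6.14 and 4.41 in adenomas, 3.48 to 4.07 in FP-high epithelium and 3.35 to 3.96 in FP-low epithelium. That call was lost without FP-low replicate 2 or 4 or adenoma replicate 1 or 2, with limma adjusted p of 0.0508 to 0.156, and with the replicate number as a block (2.31, limma adjusted p = 0.168). The summed linear level of the 7 genes was 193 to 412 in adenomas, 184 to 237 in FP-high epithelium and 181 to 246 in FP-low epithelium. Without Dcn it was 171 to 216 in adenomas, 167 to 223 in FP-high epithelium and 170 to 236 in FP-low epithelium. The collagen genes Col1a1 (-0.044), Col1a2 (-0.29) and Col3a1 (-0.098) were not called. The neutrophil genes S100a8 (5.30, 3.72 and 2.27) and S100a9 (5.86, 5.46 and 3.55) were, like Dcn and Mcpt1, higher in adenoma replicates 1 and 2 than in replicate 3. Neither was called against normal epithelium (limma adjusted p = 0.589 and 0.473), and FP-high replicate 1 read 4.02 and 5.28 for them. Of the 9 macrophage and neutrophil genes measured, 5 were higher and 4 lower by sign, with a median difference of 0.057. The part of S100a8, S100a9 and Dcn in the level of Mcpt1 was not tested.

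No gene of the other marker lists was called in adenomas against normal epithelium: 0 of 8 for basophils and eosinophils, 0 of 8 for T cells, 0 of 5 for B and plasma cells, 0 of 9 for macrophages and neutrophils, 0 of 5 for endothelium, 0 of 5 for interstitial cells of Cajal and smooth muscle, and 0 of 8 for epithelium. At an unadjusted p under 0.05 these lists held 0, 2, 1, 0, 2, 2 and 1 genes, against 10.6% of all probe sets. The summed linear level of the 8 basophil and eosinophil genes was 161 to 171 in adenomas, 165 to 194 in FP-high epithelium and 152 to 185 in FP-low epithelium. That of the 10 mast cell genes was 162 to 297 in adenomas, 111 to 163 in FP-high epithelium and 107 to 136 in FP-low epithelium. Such a sum weighs each gene by the brightness of its own probe set, and without Mcpt1 and Mcpt2 it was 87.1 to 108 in adenomas, 101 to 142 in FP-high epithelium and 94.8 to 118 in FP-low epithelium. Without replicate 1 the highest FP-high sum was 129 for the 10 genes and 114 for these 8 genes. The plasma cell gene Jchain read 6.06, 6.65 and 5.64 in adenomas, against 4.04, 3.14, 7.19 and 3.28 in FP-high epithelium and 2.70 to 6.53 in FP-low epithelium. Its difference from normal epithelium was 2.04 ± 0.89 (limma adjusted p = 0.435). The rest of the B and plasma cell list differed little: Mzb1 by 0.066, Ms4a1 by 0.066, Cd79a by 0.013 and Cd79b by -0.13.

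Fabp6 and Xist moved with Mcpt2 in part. Fabp6, the bile acid binding protein of the ileum, read 12.63, 12.74 and 13.23 in adenomas, against 4.32 to 7.51 in FP-high epithelium and 4.50 to 9.43 in FP-low epithelium. Xist, expressed by female cells, read 8.88 to 9.71 in adenomas, against 8.64 on the array FP-high replicate 4, 8.74 on FP-low replicate 6 and 2.34 to 3.61 on the remaining normal arrays. On these 2 normal arrays with high Xist, Mcpt2 read 2.90 and 2.81. All 3 adenomas and 2 of the 10 normal arrays had high Xist, so sex differed between the groups in part. The part of sex and of gut position in the level of Mcpt2 was not tested. Gut position and the adenoma state cannot be told apart by Fabp6 in these groups.

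Mcpt2 had the widest range of the 10 genes over the 13 arrays, 2.22 to 7.42, and the genes most like it in pattern were found by Pearson correlation over all 13 arrays. They were Anxa10 (r = 0.991), the gastric protease cathepsin E (Ctse, 0.984), transferrin (Trf, 0.966), Apobec2 (0.963) and Wfdc18 (0.963). Without FP-high replicate 1 the 5 most like genes over 12 arrays were Anxa10 (0.994), Ctse (0.984), Npnt (0.972), neurotensin (Nts, 0.971) and Ephx4 (0.968). The arrays fall into adenomas and normal epithelium for these genes, a split that all these coefficients share.

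Anxa10, an annexin, read 7.55, 9.42 and 8.25 in adenomas, against 3.34 to 4.49 in FP-high epithelium and 3.13 to 4.62 in FP-low epithelium. Like Mcpt2 it was highest in adenoma replicate 2 and lowest in replicate 1. Ctse read 8.21, 8.71 and 7.73 in adenomas, against 3.40 to 4.18 in FP-high epithelium and 3.28 to 4.14 in FP-low epithelium. All 5 genes named over 13 arrays were higher in adenomas than in normal epithelium, from 1.93 ± 0.19 for Trf to 6.83 ± 0.23 for Wfdc18. They were picked for likeness to Mcpt2 on these same arrays, so such differences follow from the choice and are no separate result.

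**Figure D5:**
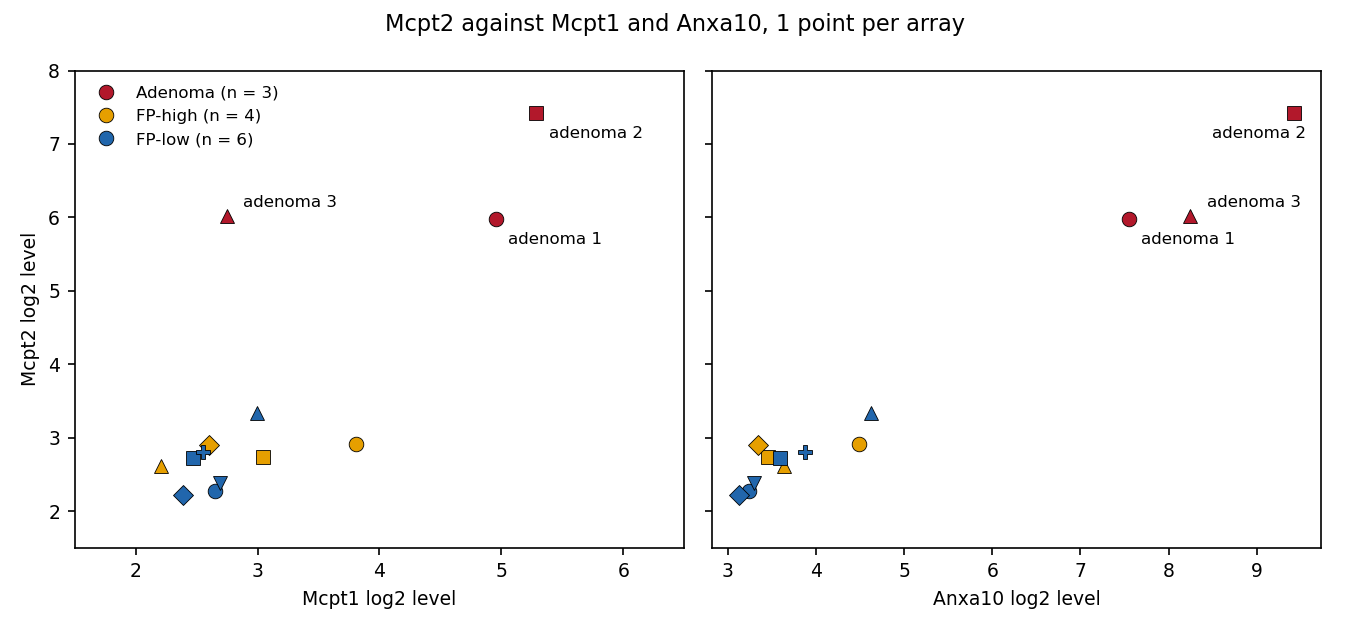
Log2 level of Mcpt2 on the vertical axis against that of Mcpt1 (left) and of Anxa10 (right), 1 point per array, with the colour for the group and the shape for the replicate number. In the right panel the 3 adenomas lie apart at the top right, and in the left panel adenoma replicate 3 has a Mcpt1 level of 2.75, among the normal arrays, with Mcpt2 at 6.02.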

How the data were processed

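The deposited values are log2 levels from Affymetrix Mouse Gene 1.0 ST arrays, 35556 probe sets on 13 arrays, which the authors made with the Affymetrix Expression Console and Transcriptome Analysis Console, per the submitters' processing notes; the normalization and the build are not stated there. The range of the values shows the log2 scale, and no array was normalized again. Names came from the platform annotation. The 23410 probe sets with a gene symbol were tested, and genes were read on probe sets with 1 symbol. Limma 3.58.1 in R 4.3.3 (lmFit and eBayes, two-sided) fitted the 3 groups on all 13 arrays with no covariate, Benjamini-Hochberg adjustment ran over all 23410, and genes with an adjusted p under 0.05 are called. Normal epithelium means the mean of both normal groups' means. The procedure was checked on simulated data with independent Gaussian noise and 1 SD per gene in all groups. No simulated array stood apart as FP-high replicate 1 does, so these rates may not hold for the real arrays. In adenomas against normal it called 22 of 50 genes simulated with a difference of 1, and 42 of 50 with a difference of 2. It also called 10 genes simulated with no difference. A gene not called may therefore still differ. The number of arrays limits the precision.

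Genes and lists were chosen with earlier results of these data known. Named genes were the 10 mast cell genes and list genes that were called or among the 4 largest differences of their list. Also named were the 5 genes most like the mast cell gene of widest range. Tpsab1, Gata2, Ctsg, Gzmb, Mcpt8, Il9, Tgfb1, Hrh1 to Hrh4, S100a8, S100a9, Fabp6 and Xist were chosen after their values were seen. Col1a1 and Col3a1 were named outside these rules. Gene order and upstream sequences came from RefSeq tables (GRCm38.p6).

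The groups share replicate numbers. The deviations of same-numbered adenoma and FP-high arrays from their group means had correlations of 0.233, 0.102 and 0.220 for numbers 1, 2 and 3. Differently numbered arrays of these groups gave -0.247 to 0.204, and those of FP-high and FP-low reached 0.347. The fit with the number as a block is given for adenomas against FP-high epithelium. For Fn1, Dcn and the numbers of calls it is also given for comparisons that include FP-low arrays. A pairing is shown neither by these correlations nor by the labels. With FP-low arrays the same-numbered correlations lay between -0.361 and 0.178. Alternatives were quantile normalization, a filter at a mean log2 level of 4, all rows tested, array weights, an intensity trend, only the groups compared, the replicate block and leaving out each array.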

Additional observations from a re-analysis of the deposited data

Results flagged for a closer look

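Both chains of the IgE receptor had 1 FP-low array far from the other 5. Fcer1a read 3.03 in FP-low replicate 3, against 2.45 in the next highest FP-low array, a gap of 0.641 of the group's range where Dixon's 95% critical value is 0.625. Ms4a2 read 3.01 in the same array, against 2.54 in the next highest, a gap of 0.708 of the range. Among FP-low arrays this one had the lowest SD (1.93), the highest lower quartile (3.69) and the lowest median correlation with the others (0.944). Both readings lay below that quartile, and whether they exceed background was not tested. In all, 20 combinations of a gene and a group were examined this way and these 2 stood out; chance gives about 1 in 20.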

How the results depend on the processing

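Mcpt2 remained called in all 3 comparisons of adenomas whichever array was left out, between 3.21 and 4.10 on the log2 scale, and in each alternative that tested it except the added block on 3 shared numbers. Leaving out 1 array gave 1 to 2 called mast cell genes in each adenoma comparison (the second, Mcpt1, only without adenoma replicate 3: 2.49 against FP-low, 2.20 against FP-high, 2.35 against normal) and 0 to 0 in FP-high against FP-low. For all probe sets it gave 0 to 136 calls in FP-high against FP-low (136 without FP-high replicate 3), 78 to 370 against FP-low, 72 to 281 against FP-high and 92 to 488 against normal. The cause of these changes was not tested.

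With only probe sets of a mean log2 level of at least 4, which keeps 3 of the 10 genes and not Mcpt2, 0 mast cell genes were called in the 3 adenoma comparisons. With array weights, 2 were called against FP-low (Mcpt1 1.80, adjusted p = 0.0412) and 3 against normal (Mcpt1 1.73 and Hdc -0.60, adjusted p = 0.0362 and 0.032), with 868, 594 and 1153 of all probe sets against FP-low, FP-high and normal, and 3 in FP-high against FP-low; quantile normalization gave 1 there. Fitting only the groups compared gave 343 against FP-low and 46 against FP-high, where Il33 was not called (adjusted p = 0.0567).

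With the replicate block, 37, 51 and 67 of all probe sets were called against FP-low, FP-high and normal, and the call of Fn1 and Dcn was lost; it changed no call of the 10 genes. The block on the 6 arrays of 3 shared numbers gave 3.72 for Mcpt2 with 0 mast cell genes and 0 of all probe sets called.

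Changes of sign met small differences that were not called: with quantile normalization Mcpt2 (-0.092), Tpsb2 (-0.084) and Ms4a2 (-0.013) in FP-high against FP-low and Mcpt4 (-0.0046) in adenomas against FP-low; with array weights Fcer1a (0.062) and Ms4a2 (0.00014) against FP-low; with the block Kit (0.0032) against FP-high. Leaving out 1 array gave -0.0081 to 0.53 for Mcpt1, -0.00096 to 0.12 for Tpsb2 and -0.032 to 0.16 for Hdc in FP-high against FP-low; -0.0038 to 0.081 for Mcpt4, -0.077 to 0.11 for Fcer1a and -0.10 to 0.036 for Ms4a2 against FP-low; -0.14 to 0.041 for Kit and -0.24 to 0.43 for Cpa3 against FP-high; and -0.011 to 0.65 for Cpa3 against normal. No gene had another probe set, so that alternative was not run.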

Other observations

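FP-low replicate 3 was the highest of the 6 FP-low arrays at 5 of the 10 mast cell genes: Mcpt1 (3.00), Mcpt2 (3.33), Fcer1a (3.03), Ms4a2 (3.01) and Hdc (4.86). The plasma cell gene Jchain read 6.53 on that array, against 2.70 to 4.44 on the other FP-low arrays. FP-high replicate 1 was the highest of the 4 FP-high arrays at 9 of the 10 genes, all but Kit. These counts were made after the values had been seen, and the shares over all probe sets were not counted.

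The ectoenzyme Enpp3, carried by mast cells, basophils and some epithelial cells, read 4.18, 5.41 and 4.15 in adenomas, against 3.89, 7.53, 9.53 and 4.59 in FP-high epithelium and 3.61 to 5.64 in FP-low epithelium. The 2 high values came from FP-high replicates 2 and 3, and the difference between adenomas and normal epithelium was -0.91 ± 0.91 (limma adjusted p = 0.682).

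Thrombospondin 1 (Thbs1), a matrix protein, read 6.97, 5.34 and 4.86 in adenomas, against 4.38 to 4.63 in FP-high epithelium and 4.47 to 4.93 in FP-low epithelium. Its difference between adenomas and normal epithelium was 1.12 ± 0.32 and was not called (limma adjusted p = 0.175).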
